A study of Mus musculus with 6 samples.

Results

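The 3 superoxide dismutases, catalase and the 6 peroxiredoxins of the mouse were followed in liver RNA of old mice that ate chow with polypropylene microplastic (PP-MP). The members are the 10 rows of the deposited count table that carry the symbols Sod1, Sod2, Sod3, Cat and Prdx1 to Prdx6, out of 56674 rows, and all 10 were among the 18284 genes with enough counts to be tested. The study compared 3 PP-MP and 3 control livers of male C57BL/6 mice, an inbred laboratory strain, aged 71 weeks. The PP-MP mice ate chow with PP-MP and the control mice ate normal chow. The question named for the series is what long exposure to PP-MP does to hepatic gene expression. The sources used here state no dose, no particle size and no duration of feeding, and the treatment protocol names PS-MP for all samples, so the groups follow the sample titles and characteristics. The labels do not say that the samples of a group are separate animals, so the p-values reflect only how far these samples differ, which may be technical.

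Superoxide is a by-product of respiration and of oxidases, and superoxide dismutases turn it into hydrogen peroxide and oxygen. Catalase splits hydrogen peroxide into water and oxygen, mainly in peroxisomes, which are plentiful in hepatocytes. Peroxiredoxins reduce hydrogen peroxide with a reactive cysteine, which most of them regain from the thioredoxin system. Each cell compartment has its own set: Sod1, Prdx1, Prdx2 and Prdx6 act chiefly in the cytosol, Sod2 and Prdx3 in mitochondria, Prdx5 in mitochondria and other compartments, Prdx4 in the endoplasmic reticulum, Cat in the peroxisome and Sod3 outside the cell.

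No member passed the threshold, and for 9 of the 10 the interval of the difference stayed within 2-fold. With edgeR's quasi-likelihood test and Benjamini-Hochberg adjustment over all genes at 0.05, 0 of 10 members were called, where 0.0109% of all tested genes were (2 of 18284). The members' adjusted p-values in that test lay between 0.326 and 0.941. DESeq2 called 4.25% of all tested genes (777) and limma-voom called 1, and each called 0 of the 10 members. For 9 members the 95% interval did not reach a 2-fold difference in either direction (log2 fold change of −1 or 1), with Cat as the exception, against 46.3% of all tested genes. The members were deeply counted, with at least 2184 reads each in every library, and the half-width of their intervals ran from 0.32 to 0.85 on the log2 scale, where the median over all tested genes was 0.73.

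The fitted log2 fold change, PP-MP over control, was below 0 for 7 members (Sod1, Sod2, Cat, Prdx1, Prdx2, Prdx3 and Prdx5) and above 0 for 3 (Sod3, Prdx4 and Prdx6), and 47.4% of all tested genes were below 0. The median over the members was −0.31, beside 0.03 over all tested genes. At an unadjusted p under 0.05, 3 members were lower in PP-MP (Sod2, Prdx3 and Prdx5) and 0 were higher. Of all tested genes 5.81% were lower at that level, and 13.9% passed it in either direction. This count turned with the scaling: with library totals alone the log2 fold change was −0.16 for Sod2, −0.23 for Prdx3 and −0.19 for Prdx5, none of which passed, and the 1 member that passed was Prdx4, higher in PP-MP (0.45), where 18.7% of all genes passed. Sod2 and Prdx5 had all PP-MP libraries below all control libraries, as did 9.79% of all tested genes. Prdx4 was the 1 member with all PP-MP libraries above all control libraries, as had 12.2% of all tested genes. For the other 7 members the groups overlapped. Levels are given below as CPM, counts of the gene per 1000000 counts of its library after scaling of the library totals with TMM factors.

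**Figure D1:**
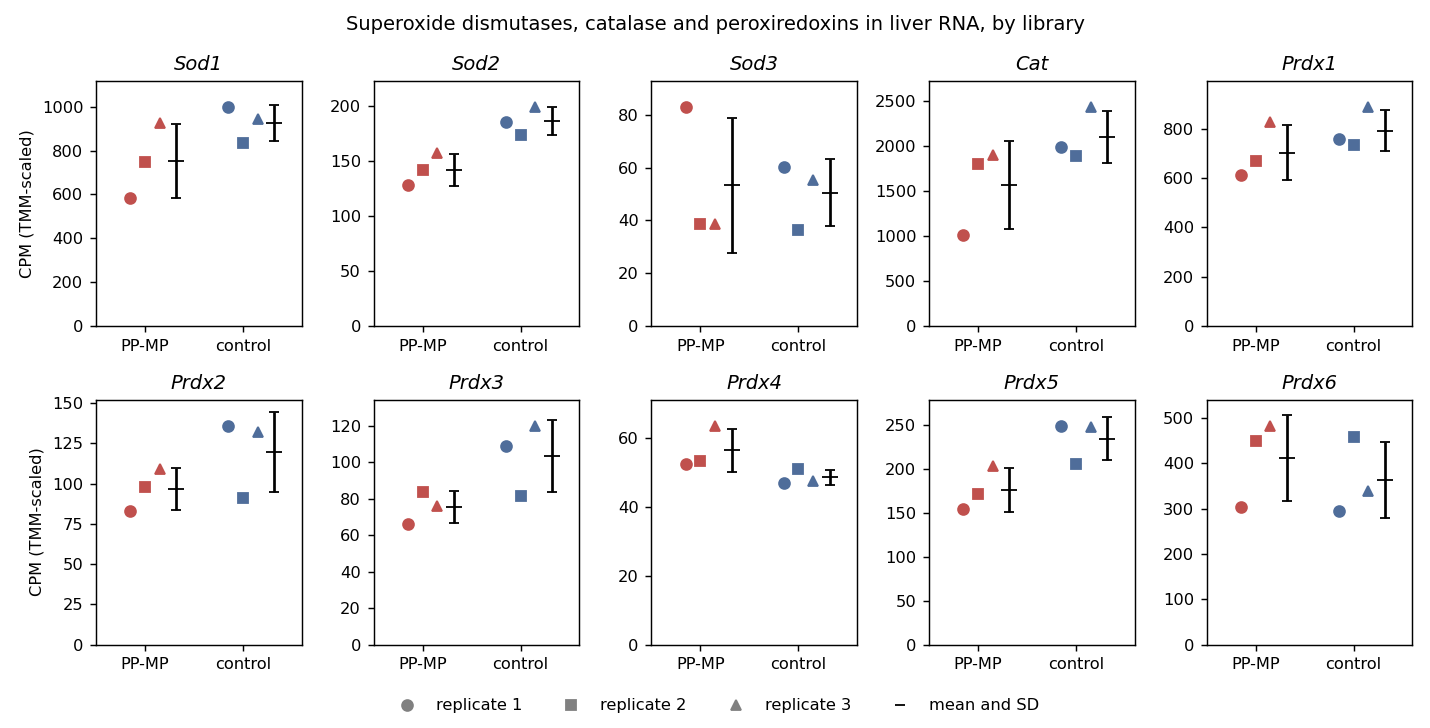
CPM of the 10 genes in each of the 3 PP-MP and 3 control libraries, each panel with its own axis from 0. Points are libraries, with 1 marker shape per replicate number, and the bar beside them is the mean with its SD. Sod2 and Prdx5 lie lower and Prdx4 higher in all PP-MP libraries, and PP-MP replicate 1 stands apart for Cat and Sod3.

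Sod1, the copper and zinc dismutase of the cytosol, had 585, 747 and 924 CPM in PP-MP replicates 1, 2 and 3, against 997, 835 and 942 CPM in control replicates 1, 2 and 3. PP-MP replicate 3 lay inside the control range and the other PP-MP libraries below it. The means were 752 ± 170 CPM in PP-MP and 925 ± 82.7 CPM in control (SD, n = 3 each), with a log2 fold change of −0.30 (95% interval −0.80 to 0.20). A processed copy, Gm8566, shares 137 of the 592 50-base stretches of the Sod1 transcript (23.1%). Its own row held 0.301% to 0.533% as many counts as Sod1.

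Sod2, the manganese dismutase of the mitochondrial matrix, had 128, 142 and 157 CPM in PP-MP replicates 1, 2 and 3, against 186, 174 and 199 CPM in the control replicates. The highest PP-MP library lay below the lowest control library. The means were 142 ± 14.2 CPM in PP-MP and 186 ± 12.5 CPM in control (SD, n = 3 each), a difference of −23.5% of the control mean. The log2 fold change was −0.39 ± 0.14 (SE, 95% interval −0.73 to −0.05). By edgeR's quasi-likelihood test the unadjusted p was 0.0308 and the Benjamini-Hochberg adjusted p 0.326. The adjusted p was 0.147 with DESeq2 and 0.276 with limma-voom. Of the 5812 50-base stretches of the Sod2 transcript, 83 (1.43%) also occur in other gene models. These are spread over 411 models, none of which shares 50 or more.

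The start regions of Sod2, Prdx3 and Prdx5, the 3 members lower at an unadjusted p under 0.05, are shown because these genes had the smallest p-values of the family. Each sequence runs from 250 bases before to 50 after the start annotated by RefSeq on build GRCm38.p6, 5′ to 3′ on the gene's strand, and capitals mark GC boxes (GGGCGG or its complement CCGCCC) and, in Prdx3, a TATAAA read on the opposite strand.
Sod2, chr17:13007589-13007888, plus strand: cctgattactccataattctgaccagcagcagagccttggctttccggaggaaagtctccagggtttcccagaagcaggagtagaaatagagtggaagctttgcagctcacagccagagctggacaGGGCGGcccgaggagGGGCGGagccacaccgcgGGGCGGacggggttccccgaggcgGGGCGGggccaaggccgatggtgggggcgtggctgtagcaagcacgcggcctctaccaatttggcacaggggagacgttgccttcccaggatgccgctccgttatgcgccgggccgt
Prdx3, chr19:60874489-60874788, minus strand: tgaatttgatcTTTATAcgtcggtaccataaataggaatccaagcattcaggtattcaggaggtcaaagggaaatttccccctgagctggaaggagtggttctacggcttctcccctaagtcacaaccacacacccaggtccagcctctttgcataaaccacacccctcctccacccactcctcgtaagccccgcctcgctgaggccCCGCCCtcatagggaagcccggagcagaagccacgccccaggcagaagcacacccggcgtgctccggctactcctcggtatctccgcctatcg
Prdx5, chr19:6910057-6910356, minus strand: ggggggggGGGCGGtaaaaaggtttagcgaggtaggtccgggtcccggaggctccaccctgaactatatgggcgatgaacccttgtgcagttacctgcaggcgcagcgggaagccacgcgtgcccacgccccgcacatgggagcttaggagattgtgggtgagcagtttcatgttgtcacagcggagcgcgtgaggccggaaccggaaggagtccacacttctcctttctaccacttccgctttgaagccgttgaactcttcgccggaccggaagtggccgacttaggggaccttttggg
Of the 10 members 8 had such a window in the RefSeq table, all but Sod3 and Prdx6. A GC box on either strand was in 8 of the 8 windows and in 35.7% of 32851 windows of the same length over all genes, with 4 boxes in Sod2 and 1 each in Prdx3 and Prdx5. The share of G and C was 64.3% in the Sod2 window and 61.0% in that of Prdx5, beside a median of 52.7% over all windows, and Prdx3 lay between this median and Prdx5. The antioxidant response element core (TGACNNNGC, either strand) was in 2 of the 8, Sod1 and Prdx1, and in 12.4% of all windows. TATAAA on either strand was in 3 of the 8 (Sod1, Prdx1 and Prdx3) and in 13.6% of all, and the nuclear respiratory factor motif CGCATGCGC was in 0 of the 8 and in 1.75% of all. These matches describe the letters of the windows and are not measured binding.

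Sod3, the secreted dismutase that binds to the outer surface of cells, was the most uneven of the dismutases. It had 82.9, 38.6 and 38.7 CPM in PP-MP replicates 1, 2 and 3, against 60.3, 36.2 and 55.3 CPM in the control replicates. PP-MP replicate 1 was the highest of the 6 libraries and control replicate 2 the lowest. The means were 53.4 ± 25.5 CPM in PP-MP and 50.6 ± 12.7 CPM in control (SD, n = 3 each), with a log2 fold change of 0.08 and the widest interval of the dismutases, −0.77 to 0.93. Without PP-MP replicate 1 the log2 fold change was −0.39 and without control replicate 2 it was −0.09, so the direction for Sod3 rests on single libraries. Without both libraries the log2 fold change was −0.58, with an adjusted p of 0.174 in edgeR's quasi-likelihood test. These are its highest PP-MP and its lowest control library, so leaving both out lowers the value by construction, and no conclusion is drawn from it.

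Cat, the peroxisomal catalase, was the most abundant member by counts and the 1 whose interval reached past 2-fold. It had 1010, 1794 and 1898 CPM in PP-MP replicates 1, 2 and 3, against 1983, 1884 and 2428 CPM in the control replicates. PP-MP replicate 1 lay far below the other 5 libraries, and PP-MP replicate 3 lay inside the control range. The means were 1567 ± 485 CPM in PP-MP and 2098 ± 290 CPM in control (SD, n = 3 each). The log2 fold change was −0.42 (95% interval −1.08 to 0.23), with an adjusted p of 0.522 in edgeR's quasi-likelihood test, and it was −0.19 without PP-MP replicate 1.

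**Figure D2:**
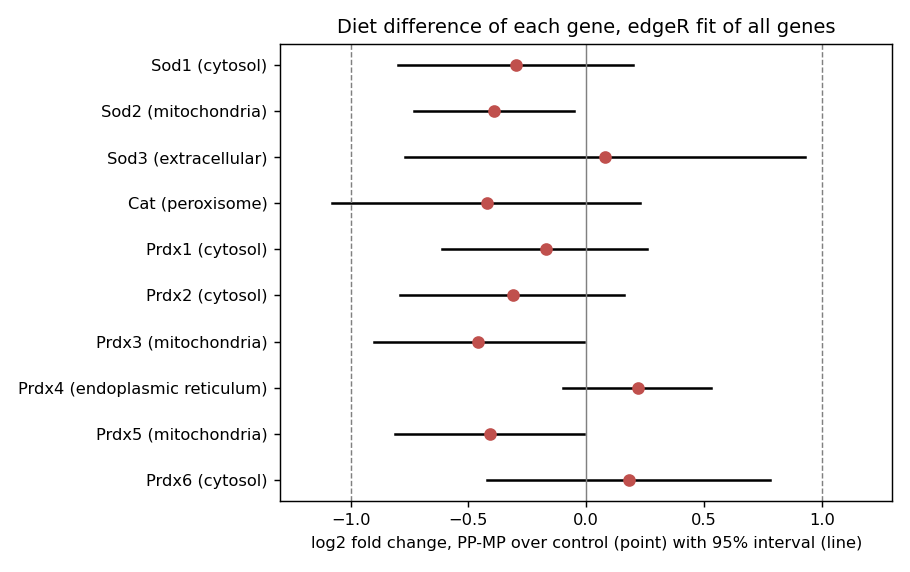
Log2 fold change of each gene, PP-MP over control (points), with its 95% interval (lines) from the edgeR fit of all genes, and dashed lines at a 2-fold difference in either direction. Compartments are in parentheses. The intervals of Sod2, Prdx3 and Prdx5 lie below 0 before adjustment over all genes, and the interval of Cat alone passes a 2-fold line.

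The peroxiredoxins differ in the coding bases around the cysteine that is oxidised by peroxide. These bases are shown to tell apart the 4 close relatives (Prdx1 to Prdx4) from Prdx5 and Prdx6. Each line gives 30 coding bases from the mouse transcript of GENCODE M21, 5′ to 3′, with the codon of the peroxidatic cysteine in capitals.
Prdx1: tttacttttgtgTGTcccacggagatcatt
Prdx2: ttcacttttgttTGCcccacggagatcatc
Prdx3: ttcacatttgtgTGTcctacagaaattgtt
Prdx4: ttcacctttgtgTGTccaactgaaatcatc
Prdx5: tttacacctggcTGTtctaagacccacctg
Prdx6: tttaccccagtgTGCaccacagaacttggc
The codon is number 52 in Prdx1, 51 in Prdx2, 109 in Prdx3, 127 in Prdx4, 96 in Prdx5 and 47 in Prdx6, counted from the start codon. Relative to Prdx1 the stretch differs at 4 bases in Prdx2, 7 in Prdx3 and 6 in Prdx4, and at 15 in Prdx5 and 13 in Prdx6. The differing bases of Prdx2 and Prdx4 are silent, so Prdx1, Prdx2 and Prdx4 encode the same residues in this stretch. Across the aligned coding sequence Prdx2 and Prdx4 were the closest pair, with 74.3% identical bases, and Prdx1 and Prdx5 the most distant, with 58.6%. This measure did not tell the close relatives apart from the others: Prdx3 had 65.6% with Prdx4 and 67.4% with Prdx5. Sod1 and Sod2, which belong to unrelated enzyme families, reached 65.2% in the same kind of alignment, so identities near that level carry little information.

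Prdx1 and Prdx2 are the peroxiredoxins of the cytosol that form dimers and are reduced by thioredoxin. Prdx1, the most abundant of the family, had 611, 669 and 828 CPM in PP-MP replicates 1, 2 and 3, against 756, 733 and 886 CPM in the control replicates. Prdx2, which is also a major protein of red blood cells, had 83.0, 97.8 and 109 CPM in PP-MP, against 136, 91.4 and 132 CPM in control, in the same order of replicates. The groups overlapped for both genes. The log2 fold change was −0.17 (95% interval −0.61 to 0.26) for Prdx1 and −0.31 (95% interval −0.79 to 0.16) for Prdx2. With each library left out in turn the Prdx2 value ran from −0.46 (without control replicate 2) to −0.20 (without control replicate 1), and it was −0.09 with library totals.

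Counts of Prdx2 share sequence with neighbouring and copied genes. Of its 1563 50-base stretches 372 (23.8%) also occur in other gene models: the pseudogene Prdx2-ps1, and Junb and Rnaseh2a, which overlap it on the opposite strand. The row of Rnaseh2a held 14.6% to 20.2% as many counts as Prdx2 and had a log2 fold change of −0.47. The row of Junb held at most 1 count in any library. Whether that value reflects its expression or the counting of overlapping reads was not tested. The libraries were made with a directional kit, but the strand setting of the counting is not stated in the sources used here, so reads of Prdx2 and of its neighbours cannot be told apart in the overlap. Prdx2-ps1 held 0.49% to 0.848% as many counts as Prdx2. The copies Gm21399 and Gm7204, which share sequence with Prdx1, held at most 0.251% and 0.316% as many counts as Prdx1. The transcripts of Sod3, Cat, Prdx3 and Prdx4 shared 0 such stretches with other gene models.

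Prdx3, the peroxiredoxin of the mitochondrial matrix, had 66.2, 83.9 and 76.2 CPM in PP-MP replicates 1, 2 and 3, against 109, 81.3 and 120 CPM in the control replicates. The groups overlapped through control replicate 2, which lay just under PP-MP replicate 2, and the other PP-MP and control libraries were apart. The means were 75.4 ± 8.90 CPM in PP-MP and 104 ± 20.0 CPM in control (SD, n = 3 each). Its log2 fold change was the most negative of the 10, −0.46 ± 0.19 (SE, 95% interval −0.90 to −0.01), with an unadjusted p of 0.0456 and an adjusted p of 0.355 in edgeR's quasi-likelihood test. With each library left out in turn it ran from −0.59 (without control replicate 2) to −0.31 (without control replicate 3).

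Prdx5, a peroxiredoxin of mitochondria, peroxisomes and cytosol, had 154, 171 and 203 CPM in PP-MP replicates 1, 2 and 3, against 249, 206 and 248 CPM in the control replicates. All PP-MP libraries lay below all control libraries, with PP-MP replicate 3 only just below control replicate 2. The means were 176 ± 24.8 CPM in PP-MP and 234 ± 24.5 CPM in control (SD, n = 3 each). The log2 fold change was −0.41 ± 0.17 (SE, 95% interval −0.81 to −0.01), with an unadjusted p of 0.0440 and an adjusted p of 0.353 in edgeR's quasi-likelihood test. Trmt112, a methyltransferase cofactor gene that overlaps Prdx5 on the opposite strand, shares 360 of its 1213 50-base stretches (29.7%). The row of Trmt112 held 11.9% to 13.9% as many counts as Prdx5 and had a log2 fold change of −0.25.

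Prdx4, the peroxiredoxin of the endoplasmic reticulum, had 52.3, 53.3 and 63.5 CPM in PP-MP replicates 1, 2 and 3, against 47.0, 50.9 and 47.6 CPM in the control replicates. The lowest PP-MP library was above the highest control library, by little. The means were 56.3 ± 6.21 CPM in PP-MP and 48.5 ± 2.11 CPM in control (SD, n = 3 each), and the log2 fold change was 0.22 (95% interval −0.10 to 0.53). By edgeR's quasi-likelihood test the unadjusted p was 0.148 and the adjusted p 0.496. With library totals the adjusted p of its log2 fold change of 0.45 was 0.160 in the same test, and with each library left out in turn the value ran from 0.12 (without PP-MP replicate 3) to 0.27.

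Prdx6, which has a single catalytic cysteine, is reduced with glutathione and also has phospholipase activity, had 303, 449 and 483 CPM in PP-MP replicates 1, 2 and 3, against 294, 458 and 338 CPM in the control replicates. Each group held low and high libraries, and the groups overlapped over most of their range. The means were 412 ± 95.6 CPM in PP-MP and 363 ± 85.2 CPM in control (SD, n = 3 each), with a log2 fold change of 0.18 (95% interval −0.42 to 0.78). With each library left out in turn it ran from 0.05 (without PP-MP replicate 3) to 0.39 (without control replicate 2), with 0.06 without control replicate 1. It was 0.56 without PP-MP replicate 1 and control replicate 2 together, its lowest PP-MP and highest control library, an omission that raises the value by construction.

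Ratios between members within a library do not depend on the scaling of libraries. Of the 8 ratios examined, the groups were apart for Prdx4 to Prdx1 and for Prdx5 to Prdx1. Both genes were also apart in CPM, from the same counts, so these ratios are not separate support. The share of all genes whose ratio to Prdx1 separates the groups was not computed. Per count of Prdx1 there were 0.0855, 0.0796 and 0.0767 counts of Prdx4 in PP-MP replicates 1, 2 and 3, against 0.0621, 0.0694 and 0.0537 in the control replicates. The mean log2 ratio was higher in PP-MP by 0.39, with an exact two-sided permutation p of 0.1, the smallest that 3 against 3 libraries can give, and a Benjamini-Hochberg value of 0.4 over the 8 ratios. Per count of Prdx1 there were 0.252, 0.256 and 0.245 counts of Prdx5 in the PP-MP replicates, against 0.330, 0.281 and 0.279 in the control replicates. The difference of the mean log2 ratio was −0.24, with an exact permutation p of 0.1 and an adjusted value of 0.4.

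The proportion of the mitochondrial to the cytosolic dismutase overlapped between the groups. There were 0.219, 0.191 and 0.170 counts of Sod2 per count of Sod1 in the PP-MP replicates, against 0.186, 0.208 and 0.211 in the control replicates. The difference of the mean log2 ratio was −0.07, with an exact permutation p of 0.7. The ratio of Cat to Sod1 differed by −0.15 (exact p of 0.5), that of Prdx2 to Prdx1 by −0.12 (exact p of 0.6) and that of Prdx3 to Prdx1 by −0.27 (exact p of 0.2), and the groups overlapped in each. Sod3 per count of Sod1 was 0.142 in PP-MP replicate 1, and 0.0518 and 0.0419 in the other PP-MP libraries, against 0.0605, 0.0434 and 0.0587 in control. So PP-MP replicate 1 stood apart for Sod3 in this measure too. Prdx6 to Prdx1 differed by 0.36 (exact p of 0.3), again with overlap.

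**Figure D3:**
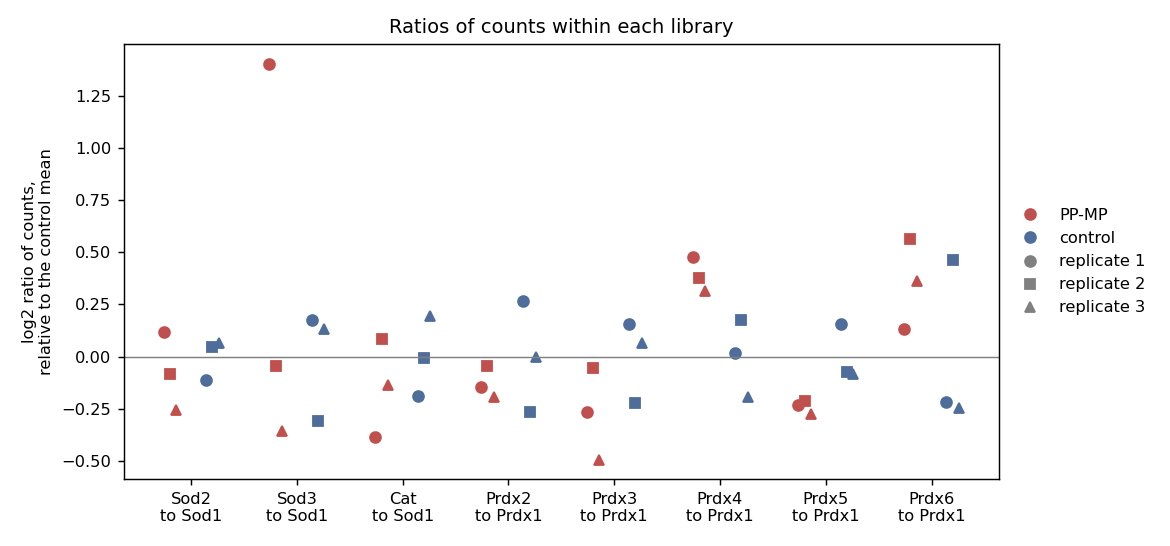
Log2 ratio of counts of 2 genes within each library, set relative to the mean of the control libraries, for the 8 ratios, with PP-MP libraries left of control libraries in each column. The groups are apart for Prdx4 to Prdx1 and Prdx5 to Prdx1, and PP-MP replicate 1 lies far above all others for Sod3 to Sod1.

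Levels of different members were compared per kilobase of their principal transcript, which is 641 bases for Sod1 and 5861 for Sod2, so the order depends on the transcript chosen. On this scale Sod1 was highest, with 1173 ± 265 CPM per kilobase in PP-MP and 1443 ± 129 in control (SD, n = 3 each). Cat followed with 600 ± 186 in PP-MP and 803 ± 111 in control, and Prdx1 with 306 ± 48.9 in PP-MP and 345 ± 36.0 in control. Neighbours in this order down to Prdx1 did not overlap within either group, and Prdx1 did not overlap with Prdx5.

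Prdx5 and Prdx6 came next and overlapped with each other in both groups, at 140 ± 19.7 and 172 ± 40.0 CPM per kilobase in PP-MP and 186 ± 19.4 and 152 ± 35.7 in control. Prdx2 and Prdx3 overlapped in both groups, at 59.9 ± 8.11 and 51.0 ± 6.02 CPM per kilobase in PP-MP and 74.5 ± 15.4 and 70.1 ± 13.5 in control. Prdx4 had 56.9 ± 6.27 CPM per kilobase in PP-MP and 49.0 ± 2.13 in control, and it overlapped with Prdx3 in PP-MP and not in control. The least abundant by this measure were Sod2, with 24.3 ± 2.42 in PP-MP and 31.8 ± 2.14 in control, and Sod3, with 14.3 ± 6.83 in PP-MP and 13.5 ± 3.40 in control. Sod2 and Sod3 overlapped in PP-MP, through replicate 1, and not in control.

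**Figure D4:**
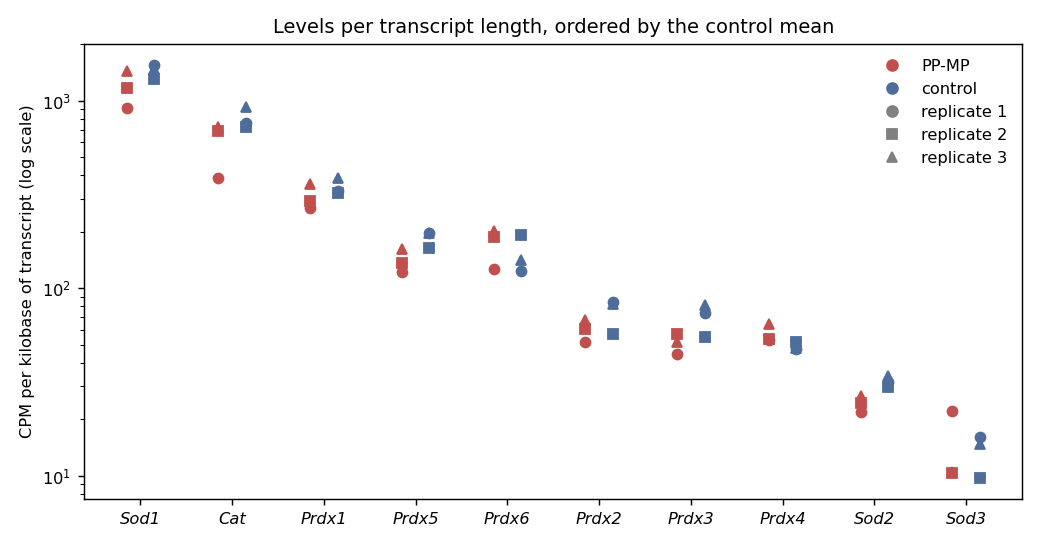
CPM per kilobase of principal transcript, on a log scale, for the 10 genes ordered by their control mean, with PP-MP libraries left of control libraries for each gene. Sod1 and Cat are highest and Sod2 and Sod3 lowest in both groups.

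The members' order across libraries was uneven. PP-MP replicate 1 was the lowest of the 6 libraries for 7 members (Sod1, Sod2, Cat, Prdx1, Prdx2, Prdx3 and Prdx5) and the highest for Sod3. Control replicate 3 was the highest for Sod2, Cat, Prdx1 and Prdx3. The share of all tested genes that were lowest in PP-MP replicate 1 was not computed, so this order is not shown to be particular to the members. Relative to the control mean on the log2 scale, Cat was at −1.05 in PP-MP replicate 1 and at −0.22 and −0.14 in the other PP-MP libraries.

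Genes of inflammation and of immune cells were highest in that same library, PP-MP replicate 1. The mean of 14 genes of the acute phase list, most of them made by hepatocytes in inflammation and 1, Il1b, a cytokine of immune cells, was 3.28, 0.63 and −0.19 in PP-MP replicates 1, 2 and 3 on the log2 scale relative to control. Saa1, one of them, had 1700, 20.6 and 5.25 CPM in PP-MP, against 8.51, 6.29 and 7.75 CPM in control. The summed level of 12 macrophage markers was 839, 473 and 229 CPM in PP-MP and 188 to 222 CPM in control, and 12 of the 12 had a positive log2 fold change. Marco, a scavenger receptor of macrophages, had the smallest p of that list, with 138, 66.6 and 24.2 CPM in PP-MP, against 3.39, 3.53 and 1.56 CPM in control. The summed level of 12 neutrophil markers was 29.3, 5.72 and 3.21 CPM in PP-MP and 1.53 to 2.16 CPM in control, and S100a9, of smallest p there, had 9.63, 1.13 and 1.09 CPM in PP-MP, against 0.358, 0.299 and 0.363 CPM in control. The neutrophil granule genes Camp and Mpo had 58 and 101 reads in PP-MP replicate 1 and 0 in every control library. Other granule genes were not absent from control. Ngp had 167, 4 and 6 reads in PP-MP, against 0, 9 and 3 in control. Ltf had 103, 0 and 0 reads in PP-MP, against 0, 10 and 0 in control. Elane had 0.644, 0.241 and 0 CPM in PP-MP, against 0.303, 0.216 and 0.191 CPM in control (log2 fold change 0.32). The part of these cells in the values of Cat, Sod3 and the other members was not tested, and in bulk RNA fewer cells of a type and less RNA per cell cannot be told apart. Without PP-MP replicate 1, Sod2 had a log2 fold change of −0.32, Prdx3 of −0.37, Prdx5 of −0.32 and Prdx4 of 0.27, with 0 members at an unadjusted p under 0.05 in edgeR's quasi-likelihood test, where 9.66% of all genes passed.

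Red blood cell markers were read because Prdx2 is also made in that lineage, and hepatocyte markers as a check of the tissue label. The summed level of the red blood cell markers was 392, 769 and 581 CPM in PP-MP, against 492, 266 and 512 CPM in control, and the part of these cells in the level of Prdx2 was not tested. The beta globin genes Hbb-bt and Hbb-bs had log2 fold changes of 0.92 and 0.82, and Hbb-bs had 116, 228 and 162 CPM in PP-MP, against 108, 59.8 and 118 CPM in control. Alas2, the haem synthesis enzyme of red cell precursors, lay the other way, with 39.8, 61.6 and 63.0 CPM in PP-MP, against 72.9, 67.1 and 75.5 CPM in control (log2 fold change −0.39). The 10 hepatocyte markers were abundant in all libraries, with Alb between 47022 and 58012 CPM in PP-MP and 47410 and 56473 CPM in control. They did not stay level one by one: Apoa1, an apolipoprotein gene, had 9670, 3559 and 7457 CPM in PP-MP, against 1165, 1191 and 3693 CPM in control (log2 fold change 1.77, unadjusted p of 0.0202 in edgeR across all genes), and it was the 1 marker of this list that DESeq2 called. Sums of 10 sinusoidal endothelial markers were 130 to 211 CPM in PP-MP and 140 to 170 CPM in control, and sums of 11 stellate and mural markers were 306 to 474 CPM in PP-MP and 345 to 355 CPM in control.

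**Figure D5:**
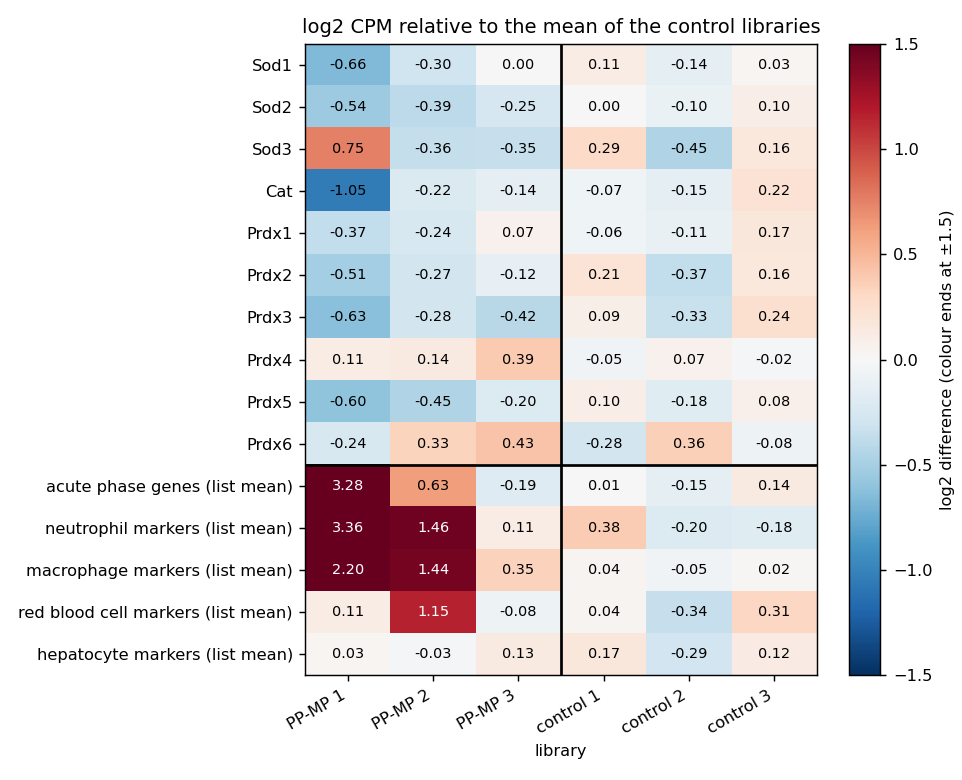
Log2 CPM of each member, and mean of each of 5 marker lists, relative to the mean of the control libraries, with PP-MP libraries in the left columns and control libraries in the right. PP-MP replicate 1 has the lowest Cat (−1.05), the highest Sod3 (0.75) and the highest mean of the acute phase list (3.28).

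Genes that work with the members were read from the same fit, in lists chosen with earlier results of these data known. None of these list genes passed the threshold in edgeR's quasi-likelihood test after adjustment. Of 17 genes listed for the thioredoxin and glutaredoxin system, part of which restores oxidised peroxiredoxins, 14 had a negative log2 fold change. Of all tested genes 47.4% had one. The median of the 17 was −0.20, and 0 passed an unadjusted p of 0.05, where 13.9% of all tested genes passed in either direction. The median was 0.04 with library totals and −0.06 without PP-MP replicate 1. The smallest p was that of Txn1, the cytosolic thioredoxin (log2 fold change −0.35, unadjusted p of 0.0746 in edgeR across all genes). The 11 genes listed for the handling of copper, zinc or manganese had a median of −0.13. Of these, 0 passed, beside the same 13.9% of all tested genes. Atox1, a copper chaperone, had the smallest p there, with a log2 fold change of −0.44 and an unadjusted p of 0.0852 in edgeR across all genes.

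The glutathione branch, the other route by which cells remove hydrogen peroxide, comprised 9 tested genes whose log2 fold changes had a median of −0.35, and 3 of them were lower at an unadjusted p under 0.05 (5.81% of all tested genes) and 0 higher. The median was −0.11 with library totals and −0.16 without control replicate 3. Gclc, which encodes the catalytic part of the enzyme that limits the rate at which glutathione is made, had 134, 218 and 210 CPM in PP-MP replicates 1, 2 and 3, against 333, 464 and 308 CPM in the control replicates, and a log2 fold change of −0.97 (adjusted p of 0.235). Gpx4, which reduces lipid peroxides, had 267, 288 and 271 CPM in PP-MP, against 432, 370 and 585 CPM in control (log2 fold change −0.75, adjusted p of 0.243). Gsr, glutathione reductase, had 46.3, 50.6 and 37.0 CPM in PP-MP, against 66.9, 69.2 and 59.1 CPM in control (log2 fold change −0.54, adjusted p of 0.254). The groups did not overlap for any of these 3, which were picked by their p-values. Among the 9 genes, 4 had all PP-MP libraries below all control libraries, beside 9.79% of all tested genes. DESeq2 called 2 of the 9 genes, both lower, and 4.25% of all tested genes. The log2 fold changes of the 3 were larger in size than that of any member.

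Among 23 tested enzymes that make superoxide or hydrogen peroxide, 2 were lower and 3 higher at an unadjusted p under 0.05, with a median log2 fold change of 0.03. That makes 5 of 23, where 13.9% of all tested genes passed in either direction, and DESeq2 called 1, lower. Aox1, an aldehyde oxidase, had 57.6, 34.8 and 72.0 CPM in PP-MP, against 122, 112 and 104 CPM in control (log2 fold change −1.04), and Maoa, a mitochondrial monoamine oxidase, had a log2 fold change of −0.53. Acox3, a peroxisomal acyl-CoA oxidase, had a log2 fold change of 0.79, and Cybb, the phagocyte oxidase subunit, had one of 1.23 with its highest level, 32.9 CPM, in PP-MP replicate 1. Of 19 genes of peroxisomal import and division, the compartment of catalase, 0 passed, beside the same 13.9% of all tested genes. The median of the 19 was −0.20, with the smallest p at Pex3 (log2 fold change −0.30). Of 17 transcriptional regulators of antioxidant genes, 1 was higher, Mafg (0.58), and 1 lower, Foxo4 (−0.37), at an unadjusted p under 0.05, where 13.9% of all tested genes passed in either direction. Their median was −0.09, and it was 0.14 with library totals and 0.06 without control replicate 3.

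The genes most like each member were taken as those with the highest Pearson r of log2 CPM over the 6 libraries, among 6676 genes with a mean of at least 10 CPM, as a description with no test. For Sod2 they were Cdc34 (r = 0.998) and Idh1 (0.997), for Prdx3 Slc39a11 (0.998) and Cyp2a4 (0.995), and for Prdx5 Dgcr6 (0.999) and Csad (0.996). Cat was closest to Gins4 and Aldh1a1 (0.995 each) and Sod1 to Leap2 and Serpina1c (0.996 each). The best matches of Sod3 (C1rb, 0.990), Prdx6 (Aggf1, 0.989) and Prdx4 (Gzf1, 0.984) were lower. All points share the 6 libraries and their depth. Each r is the highest among 6676 genes over only 6 libraries. High values can arise from such a search alone, so they do not show shared regulation.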

How the data were processed

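RNA-seq of liver was deposited by the authors as raw counts per gene, whole numbers and not normalized, for 6 libraries (56674 rows by gene symbol), and the 6 per-sample files were identical to the columns of the series table. Per the labels, the kits selected poly(A) RNA and made strand-specific libraries. Per the submitters' processing notes, bcl2fastq and the build GRCm39 were used. The aligner, the counter, its strand setting and the annotation are not stated in the sources used here. Total counts were 81073738 to 100252360 in PP-MP and 68357478 to 112566641 in control libraries. How multi-mapping or overlapping reads were counted is therefore unknown. This matters most for Sod1, Prdx1, Prdx2 and Prdx5, and for a smaller part of the Sod2 transcript (1.43% of its stretches).

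After a filterByExpr filter by group, counts were scaled with TMM factors (1.03 to 1.12 in PP-MP, 0.882 to 0.957 in control) and tested with the robust quasi-likelihood test of edgeR 4.0.16 (R 4.3.3), two-sided and unpaired, with Benjamini-Hochberg adjustment over 18284 genes. Log2 CPM used a prior count of 2. Alternatives were DESeq2 1.42.0, limma-voom (limma 3.58.1), other scaling and filters, a replicate block, a length trend removed (lowess span 0.3) and libraries left out. Same-numbered libraries did not deviate together (correlations −0.0808, −0.1018 and 0.0388 over 12660 genes). The labels do not say that the numbers pair samples, and these correlations cannot exclude a shared factor. Ratios were tested with exact permutation tests in SciPy 1.17.1.

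The members and the 13 lists (178 entries, 177 matched by symbol) were chosen with earlier results of these data known. All members are named. From each list at most 4 genes of unadjusted p under 0.05 and mean CPM of at least 1 are named by smallest p, or else the 1 of smallest p, and for marker lists also the most abundant. Not every gene the rule allows is named. Alas2, Il1b, Camp, Mpo, Ngp, Ltf and Elane were added after their values were seen, as were genes that share sequence with a member. Transcripts and overlaps came from GENCODE M21 (GRCm38) by symbol. Another 5 rows named after members had a mean CPM under 1.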

Additional observations from a re-analysis of the deposited data

How the results depend on the processing

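No member was called under any of the 15 alternatives (lowest adjusted p 0.134), and 146 of 150 member values and 60 of 64 ratio values kept their direction and side of the threshold. Over all genes, 2 were called, against 1 with library totals, 1 with limma-voom, 777 with DESeq2, 0 with the replicate block and 0 to 92 with each library left out (92 without control replicate 2, 2 without PP-MP replicate 3 and 0 without any other). Members at an unadjusted p under 0.05 numbered 3 (Sod2, Prdx3 and Prdx5, all lower), where 13.9% of all genes passed. They numbered 1 with library totals (Prdx4, higher, where 18.7% of all genes passed) and 1 with no filter on low counts (Sod2, 10.2% of all genes). With the replicate block they numbered 0 (9.94% of all genes). They numbered 3 with the length trend removed (Sod2 and Prdx5 lower, Prdx4 higher, 14.2% of all genes). With limma-voom (15.8%) and with a mean CPM of at least 1 (14.3%) they numbered 2, Sod2 and Prdx5, both lower. They numbered 0 to 4 with each library left out. That count was 2 without PP-MP replicate 3 (Sod2 and Prdx5, both lower). It was 4 without control replicate 2 (Sod2, Prdx2, Prdx3 and Prdx5, all lower, 20.8% of all genes) and 0 without any other library. Without the pair of control replicate 2 and PP-MP replicate 1 they numbered 6, where 17.6% of all genes passed. Of these, Sod2, Sod3, Prdx2, Prdx3 and Prdx5 were lower and Prdx6 was higher. Members lower in every PP-MP library numbered 2 (9.79% of all genes), against 0 with library totals (2.59%), 1 with no filter (5.51%), 2 to 6 with each library left out (3 without PP-MP replicate 2, 5 without PP-MP replicate 3 and 6 without control replicate 2, where 13.4%, 15.2% and 19.3% of all genes were lower) and 7 without the pair (24.4%), and members higher numbered 1, against 2 without the pair (29.0%). Fewer libraries separate more often by construction.

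Library totals moved the median of all genes to 0.26, where TMM gave 0.03, and the members' median to −0.08, where TMM gave −0.31. Relative to all genes the members' median was −0.34 with TMM and −0.35 with library totals. No filter moved the median of all genes to 0.13. Library totals reversed Prdx1 (0.05). Sod3 reversed without the pair (−0.58) and ran from −0.39 to 0.26 with each library left out. The pair holds the highest PP-MP and the lowest control library of Sod3, so leaving it out lowers that value by construction. The ratio of Sod3 to Sod1 was −0.36 without the pair and −0.20 to 0.68 with each library left out. Across the same omissions Sod2 to Sod1 ran from −0.17 to 0.02 and Prdx2 to Prdx1 from −0.25 to 0.01. For these reversals the cause was not tested. With 3 libraries a group, ratios cannot reach an exact p under 0.1.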
